A study of Mus musculus with 7 samples.

Results

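The replication-dependent histone genes of mouse code for the linker histone H1 and the core histones H2A, H2B, H3 and H4 in clusters of short genes. In the count table of this series, 70 of 48440 rows carry their older cluster names, Hist1h to Hist4h. The 48 rows with a sum of at least 70 raw counts over the 7 libraries are described here, and all 48 were among the 20019 genes tested. The lowest of the 48, Hist1h2ae and Hist3h2bb-ps, summed to 73 counts. The highest left out were Hist1h2ac with 69 counts, Hist1h2ab with 68 and Hist1h2ba with 67. Of the 22 rows left out, 10 were at 0 in every library, and 6 had enough counts to be tested.

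RNA was measured in pools of whole E16 retinas. All groups carry Cre recombinase driven by the Chx10 promoter, which acts in retinal progenitors. The control group is Chx10Cre and is called WT here (1 library), the heterozygotes are Chx10-Cre;Ptbp1lox/WT (Het, 3 libraries) and the homozygotes are Chx10-Cre;Ptbp1lox/lox (KO, 3 libraries). The comparison asks what changed when the second copy of Ptbp1, an RNA-binding regulator of splicing, was also deleted. Cells in which Cre does not act keep their alleles. The single WT pool has no error of its own, and the p-values below measure the spread between pools of retinas.

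Most animal mRNAs end in a poly(A) tail, but the mRNAs of these histone genes end just after a conserved stem-loop, which the stem-loop binding protein Slbp holds. They are made in S phase, when new DNA has to be packed, and are destroyed when replication stops. Dividing retinal progenitors therefore hold much of this mRNA, while postmitotic neurons hold mainly mRNAs of histone variants coded elsewhere in the genome, which have ordinary tails. The libraries were made from mRNA picked by its tail, so the counts below describe polyadenylated and carried-over forms of the histone transcripts and not the whole pool of histone mRNA.

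The stem-loop is the sequence that sets these genes apart, so one example of each form found is shown, from the gene with the highest CPM among those with that form, followed by those of the 2 genes that passed the test between Het and KO. Capitals mark the paired arms, lower case letters between them the loop of 4 bases, and the outer lower case letters the 5 bases on either side. The letters come from GENCODE M21 transcripts of GRCm38, are read 5′ to 3′ in the sense of the gene with T for U, and the coordinates cover the 16 bases of arms and loop.
Hist3h2ba (chr11:58949349-58949364, plus strand): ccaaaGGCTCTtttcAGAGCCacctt
Hist1h4h (chr13:23531458-23531473, plus strand): ccaaaGGCCCTtttcAGGGCCgccca
Hist1h3c (chr13:23745047-23745062, minus strand): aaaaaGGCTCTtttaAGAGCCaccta
Hist1h4i (chr13:22040966-22040981, minus strand): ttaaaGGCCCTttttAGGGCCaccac
Hist2h2ac (chr3:96220418-96220433, minus strand): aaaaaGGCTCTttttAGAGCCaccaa
Hist1h4j (chr13:21735437-21735452, plus strand): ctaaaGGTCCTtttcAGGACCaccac
Hist1h2ae (chr13:23570668-23570683, minus strand): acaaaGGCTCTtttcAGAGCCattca
Hist1h4c (chr13:23698089-23698104, minus strand): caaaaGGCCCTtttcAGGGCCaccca

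The hairpin searched for had 6 paired bases on each side, opened with GG, closed with CC and held a loop that begins with TT. Of the 48 genes, 46 are annotated as protein-coding, and 36 of these have at least 16 annotated bases after the stop codon. The hairpin lay within 100 bases of the stop codon in 31 of these 36, beginning 22 to 55 bases after it. By the same search it was found in 8 of 21018 other protein-coding genes, or 0.0381%. The form of Hist3h2ba was the most common, with 16 genes, followed by the form of Hist1h4h with 6, Hist1h3c with 5 and Hist1h4i with 2, while the forms of Hist2h2ac and Hist1h4j had 1 gene each. The canonical poly(A) signal AATAAA stood after the stop codon in 14 of the 36, against 82.7% of the other protein-coding genes. It was searched over all annotated bases after the stop codon, for example 66 in Hist1h2bj and 2515 in Hist4h4. The shares therefore do not compare equal lengths of sequence. Both the hairpin and AATAAA were present in 11 of the 36 genes, Hist3h2ba, Hist1h1c, Hist3h2a and Hist1h2ae among these. A match describes these letters only and not where the measured mRNAs ended.

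Sequence upstream of the genes was read from RefSeq promoters of GRCm38.p6, from 250 bases before to 50 after the start, and 41 of the 48 genes matched one. On either strand, TATAAA was present in 25 of the 41 (61.0%, against 15.6% of all other promoters), and CCAAT in 34 (82.9%, against 41.0%). The octamer ATTTGCAT was present in 8 of the 41 (19.5%, against 1.92%), which were 4 H2A and 4 H2B genes. Some H2A and H2B genes start close together on opposite strands. Their promoters overlap, so a site of any of these motifs can count for both. The promoters of H4 genes held CCAAT in 3 of 10 cases, whereas each of the 31 promoters of H1, H2A, H2B and H3 genes held it. None of these motifs contains another.

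The total per library was 120593979 to 171117305 counts. Levels are in CPM, a gene's counts per 1000000 of the TMM-corrected total of its library. Genes were called at a Benjamini-Hochberg adjusted p below 0.05 from edgeR's quasi-likelihood test, with a change of more than 1.20-fold, and log2 fold changes are KO over Het throughout. Ptbp1 itself measured 381 CPM in WT, 210, 219 and 234 CPM in Het and 27.9, 6.04 and 46.9 CPM in KO. Tissue carried over from around the retina differed between libraries. The summed CPM of 9 tested muscle genes was 289 in Het1 and 8.25 to 10.9 in the other libraries, and that of 7 pigment cell genes was 565 in Het1 and 45.3 to 89.6 elsewhere. Globins and other erythroid genes summed to 37.1 and 24.5 CPM in KO1 and KO2 and to 189 to 531 in the other libraries, and lens genes to 3.40 and 8.34 in KO1 and KO2 and to 17.9 to 91.2 in the others. In these lists Hbb-y was at 0 in KO1, Foxe3 at 0 in KO1 and KO2, Tnnc2 and Rpe65 at 0 in 5 libraries each and Lim2 at 0 in all 7. The part of this carried-over tissue in the histone values was not tested. Where a gene was lower, fewer cells expressing it and less RNA per cell cannot be told apart in bulk RNA.

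Together, the 48 genes made up about the same small part of every library. Their summed expression was 118.4 CPM in WT, 119.1, 117.5 and 120.5 in Het1 to Het3, and 116.8, 117.4 and 119.7 in KO1 to KO3. This is 119.0 ± 1.52 CPM in Het and 117.9 ± 1.58 in KO (SD, n = 3), so the groups overlapped. For comparison, H2afx, an H2A gene outside the clusters whose mRNA can end either way, measured 277 ± 4.99 CPM in Het and 277 ± 20.6 in KO (SD, n = 3).

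The sum of counts rested on a few genes. The 5 with the highest CPM, Hist3h2ba, Hist2h2be, Hist1h1c, Hist1h4i and Hist3h2a, took 83.9% to 87.5% of it in each library, and Hist3h2ba alone 37.4% to 44.9%. The other 43 genes summed to 17.7 ± 1.85 CPM in Het and 16.9 ± 1.93 in KO (SD, n = 3). The median gene averaged 44.6 raw counts per library, and 27 of the 48 averaged fewer than 50, so most fold changes below rest on few reads.

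**Figure D1:**
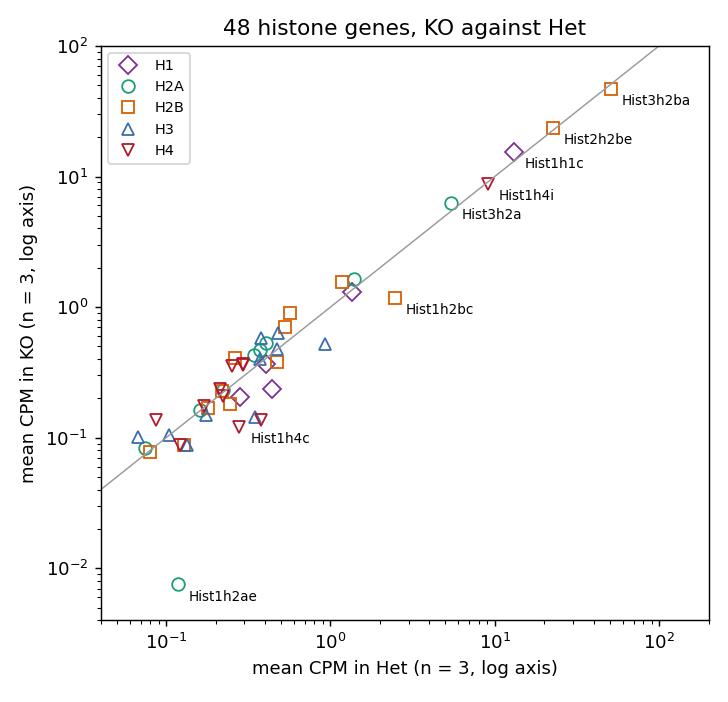
Mean expression of the 48 histone genes in KO against Het, in CPM on log axes, with 3 libraries in each group and 1 symbol per gene by histone family. The line marks equal expression. Most genes lie near it over the whole range, and Hist1h2ae, with 0 to 2 counts in the KO libraries, lies furthest below.

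Levels of different genes can be compared only per length. The deposited table was counted on GENCODE M10, so this was done only for the 31 genes whose model has the same version in M21. Hist3h2ba, which codes for an H2B, stood far above the rest with 80.4 CPM per kb of exon on average over the 7 libraries. Hist1h4i, an H4 gene, followed with 12.9, then the linker histone gene Hist1h1c with 8.83 and the H2B gene Hist2h2be with 8.79. Next came Hist1h2bj (H2B) with 2.99 and Hist3h2a (H2A) with 2.70. The median of the 31 was 0.552 CPM per kb, and 11 of them exceeded 1.

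**Figure D2:**
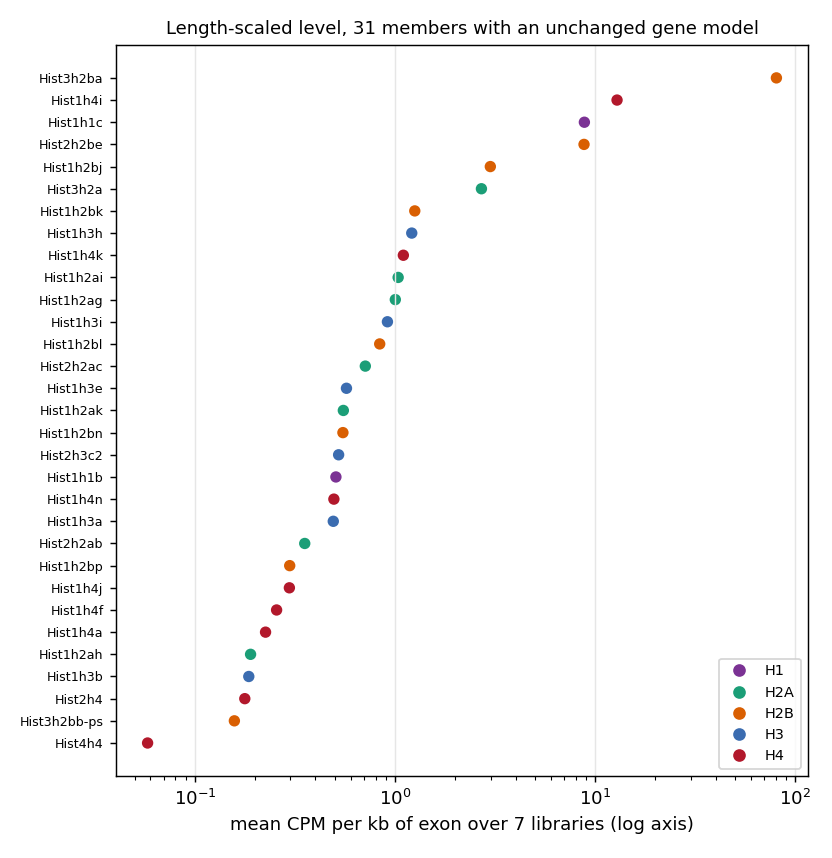
Average expression over the 7 libraries, in CPM per kb of exon on a log axis, of the 31 histone genes with an unchanged gene model, coloured by family. Hist3h2ba leads with 80.4 and Hist4h4 is lowest with 0.0581.

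Among the abundant genes, Hist3h2ba (ENSMUSG00000056895.4; chromosome 11, 58948920 to 58949533) measured 51.5 CPM in WT, 49.9, 52.7 and 50.7 in Het and 47.9, 48.04 and 44.7 in KO. Every KO library lay below every Het library, by a small margin. The log2 fold change was -0.12 (SE 0.0388, adjusted p = 0.0875, edgeR), which did not pass the test.
Its neighbour Hist3h2a (ENSMUSG00000078851.4; chromosome 11, 58954685 to 58956830) went the other way, with 5.31 CPM in WT, 5.52, 5.74 and 5.05 in Het and 6.64, 6.51 and 5.80 in KO. The groups did not overlap, but KO3 exceeded Het2 only slightly, and the log2 fold change of 0.22 (SE 0.0905, adjusted p = 0.168, edgeR) did not pass. Its model overlaps that of Trim17 and shares 29.8% of its 100-base windows with that gene and no other.
Hist2h2be (ENSMUSG00000068854.7; chromosome 3, 96221119 to 96223738), whose annotated mRNA runs on for 2192 bases after the stop codon, measured 22.4 CPM in WT, 24.3, 19.4 and 24.2 in Het and 23.3, 22.0 and 25.7 in KO. The groups overlapped throughout, and the log2 fold change was 0.07 (SE 0.103, adjusted p = 0.704, edgeR).

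Hist1h1c (ENSMUSG00000036181.2; chromosome 13, 23738808 to 23740367) codes for a linker histone, the class that binds DNA between nucleosomes. It measured 11.1 CPM in WT, 14.3, 12.7 and 12.3 in Het and 14.2, 14.96 and 16.9 in KO, with KO1 just below Het1. The log2 fold change was 0.23 (SE 0.0893, adjusted p = 0.142, edgeR).
Hist1h4i (ENSMUSG00000060639.5; chromosome 13, 22040636 to 22041362) varied most among the abundant genes. It measured 11.8 CPM in WT and 9.39, 9.02 and 8.87 in Het, but 5.91, 8.84 and 11.6 in KO, so that the KO libraries lay both below and above all Het libraries. The log2 fold change was -0.05 (SE 0.222, adjusted p = 0.898, edgeR), and it turned to 0.17 without KO1.

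**Figure D3:**
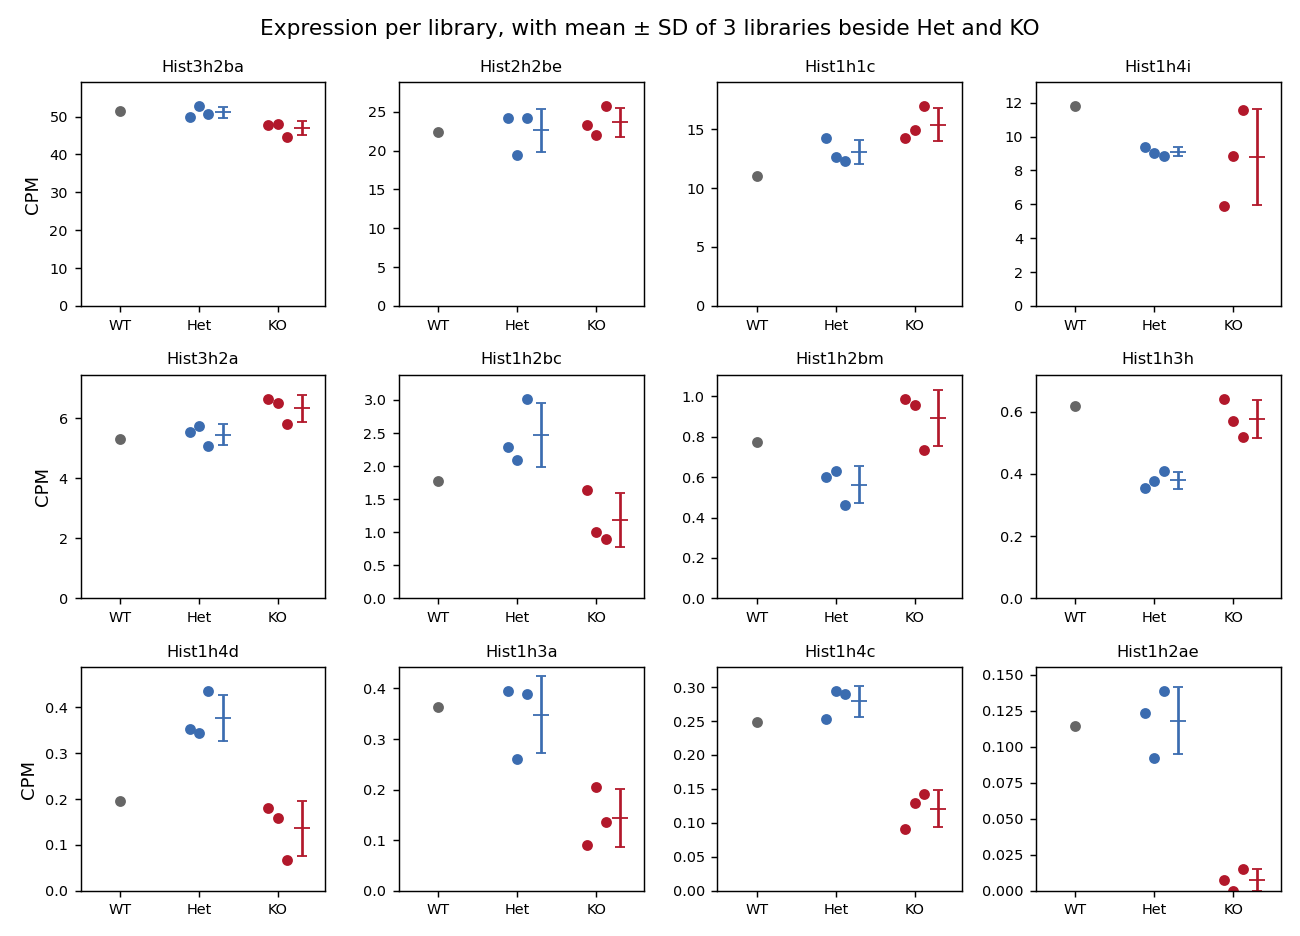
Expression of 12 histone genes in every library, in CPM on a linear axis from 0, with 1 point per library and the mean ± SD of 3 libraries beside Het and KO. The KO points of Hist1h2ae and Hist1h4c lie below all others, as do those of Hist3h2ba, Hist1h2bc, Hist1h4d and Hist1h3a. Those of Hist1h2bm, Hist1h3h and Hist3h2a lie above all Het points.

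Of the 48 genes, 0 were called higher and 2 were called lower in KO than in Het by edgeR. Over all genes tested, 7.22% were called, 4.01% higher and 3.21% lower. At an unadjusted p below 0.05, 6 of the 48 were higher and 7 lower, where all genes gave 15.1% and 14.6%. DESeq2 also called 0 higher and 2 lower, but they were other genes, named below. The KO libraries did not overlap with Het in 14 of the 48, 6 above (18.6% of all genes) and 8 below (17.7%). The fold changes were positive in 27 and negative in 21, with a median of 0.03 beside -0.00 over all genes tested. The smallest p that exact permutation of 3 against 3 libraries allows for any one gene is 0.1.

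Hist1h2ae (ENSMUSG00000069272.5; chromosome 13, 23570517 to 23571220), an H2A gene, had 17 counts in WT, 21, 11 and 21 in Het and 1, 0 and 2 in KO. It was nearly undetected in all 3 KO libraries, and WT lay within the Het range. Pooled over libraries and scaled for depth, its level in Het was 15.9 times that in KO (53 against 3 counts, exact 95% interval 5.16 to 79.7, for counting error only). The fitted log2 fold change was -3.83 (SE 0.685, adjusted p = 0.0210, edgeR). The adjusted p of the same test rose to 0.0677 without Het2, 0.0768 without Het3 and 0.0518 without KO1. DESeq2 gave no adjusted p at these counts. The gene reached the limit of 70 counts only through WT and Het, since KO added 3 of its 73 counts, so its place among the 48 genes is not independent of its difference.
The H2B gene Hist1h2bg (ENSMUSG00000058385.7) starts 175 bases from the start of Hist1h2ae on the other strand. With 54 counts in all it lay under the limit for the 48 genes, and it was looked at only after the value of Hist1h2ae was known. It had 8 counts in WT, 6, 10 and 26 in Het and 2, 0 and 2 in KO. The KO libraries were again the lowest, and Het3 stood above Het1 and Het2. The pooled ratio of Het to KO was 9.47 (42 against 4 counts, exact 95% interval 3.43 to 36.3, counting error only), and the adjusted p of 0.0781 from edgeR did not pass.

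Hist1h4c (ENSMUSG00000060678.4; chromosome 13, 23697635 to 23698454) codes for H4, the partner of H3 at the core of the nucleosome. It measured 0.249 CPM in WT, 0.253, 0.294 and 0.290 in Het and 0.0905, 0.129 and 0.143 in KO, from 37 counts in WT, 43, 35 and 44 in Het and 12, 17 and 19 in KO. All KO libraries lay well below all Het libraries, and WT lay just below the lowest Het library. The log2 fold change was -1.20 (SE 0.261, adjusted p = 0.0347, edgeR). The call was lost by 5 of the 6 fits that left out 1 library, with adjusted p from 0.0598 without Het1 to 0.116 without Het3 in edgeR's test, and it held only without KO3. DESeq2 gave an adjusted p of 0.0703.

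Besides Hist3h2ba, 5 genes were lower in every KO library than in any Het library without passing edgeR's test. Hist1h2bc (ENSMUSG00000018102.4; chromosome 13, 23684199 to 23692908) is an H2B gene and measured 1.78 CPM in WT, 2.30, 2.09 and 3.02 in Het and 1.64, 1.003 and 0.901 in KO. WT lay between the groups, nearer to KO1 than to any Het library. The log2 fold change was -1.06 (SE 0.266, adjusted p = 0.0511, edgeR), and DESeq2's Wald test called it at an adjusted p of 0.000933.
The H4 gene Hist1h4d had 29 counts in WT, 60, 41 and 66 in Het and 24, 21 and 9 in KO. Its WT level of 0.195 CPM lay near KO1 with 0.181. Its log2 fold change was -1.47 (SE 0.376, adjusted p = 0.0536, edgeR; adjusted p = 0.0266, DESeq2).
The H3 gene Hist1h3a had 54 counts in WT, 67, 31 and 59 in Het and 12, 27 and 18 in KO. WT lay within the Het range, and the log2 fold change was -1.27 (SE 0.352, adjusted p = 0.0653, edgeR). Among genes with at least 10 counts in every library its adjusted p was 0.0460.
The linker histone genes Hist1h1d and Hist1h1a had log2 fold changes of -0.91 and -0.45. They had adjusted p of 0.122 and 0.348 in edgeR's test, and KO lay below Het without overlap in both. Without Het1, the library with muscle and pigment cell RNA, Hist1h1d was called (-1.17, adjusted p = 0.0467, edgeR) and Hist1h4c was not, while Hist1h2ae stayed called (adjusted p = 0.0421, edgeR), so the count was again 2.

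Of the 6 genes whose KO libraries lay above Het, 3 were H2B genes. Hist1h2bm measured 0.773 CPM in WT, 0.6004, 0.630 and 0.461 in Het and 0.988, 0.958 and 0.736 in KO. The lowest KO library was above the highest Het library, and the WT library lay within the KO range. The log2 fold change was 0.66 (SE 0.198, adjusted p = 0.0777, edgeR).
The H3 gene Hist1h3h showed the same order, with 0.619 CPM in WT, 0.353, 0.378 and 0.409 in Het and 0.641, 0.570 and 0.518 in KO, a log2 fold change of 0.60 (SE 0.171, adjusted p = 0.0702, edgeR). It shares 92.0% of its 100-base windows with other H3 genes. With only genes of at least 10 counts in every library tested, it was called at an adjusted p of 0.0460 in edgeR.
Hist1h2bl had 33 counts in WT, 34, 39 and 40 in Het and 55, 52 and 55 in KO, a log2 fold change of 0.63 (SE 0.235, adjusted p = 0.132, edgeR). Hist1h2bk had 72 in WT, 76, 71 and 82 in Het and 91, 94 and 95 in KO, a log2 fold change of 0.42 (SE 0.168, adjusted p = 0.156, edgeR). In both genes the KO libraries lay close together, above Het and WT. Hist1h2ag, an H2A gene, and Hist3h2a were the others with KO above Het. Hist1h2bl, Hist1h2bk and Hist1h2ag shared 62.1%, 70.8% and 76.2% of their windows with other genes, against 6.59% in Hist1h2bm and 29.8% in Hist3h2a.

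The other named genes did not separate the genotypes. Hist1h1e, a linker histone gene, measured 1.36 ± 0.154 CPM in Het and 1.31 ± 0.271 in KO (SD, n = 3). Hist1h2bj measured 1.17 ± 0.0174 and 1.56 ± 0.399 CPM, with KO2 and KO3 above and KO1 just below all Het libraries. The H3 gene Hist1h3c measured 0.921 ± 0.304 and 0.524 ± 0.171 CPM, and the H2B gene Hist1h2be 0.471 ± 0.0609 and 0.380 ± 0.0841. Hist2h3c2, an H3 gene, measured 0.478 ± 0.123 CPM in Het and 0.629 ± 0.0528 in KO. Hist1h1b, a linker histone gene, measured 0.406 ± 0.161 CPM in Het and 0.367 ± 0.0543 in KO. The pseudogene Hist1h2al measured 1.39 ± 0.715 CPM in Het and 1.65 ± 0.550 in KO, with single libraries from 0.877 to 2.21. These 7 genes had adjusted p from 0.170 to 0.869 in edgeR's test.

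By family, the linker histone genes summed to 15.6 ± 0.722 CPM in Het and 17.5 ± 1.01 in KO (SD, n = 3), and the sum follows Hist1h1c, as the other 4 of the 5 genes had negative fold changes. The 9 H2A genes summed to 8.53 ± 0.967 and 9.88 ± 1.004 CPM, with 8 positive fold changes and the negative one of Hist1h2ae. The 13 H2B genes summed to 80.1 ± 2.01 and 76.4 ± 0.898 CPM, a sum led by Hist3h2ba. The 10 H3 genes summed to 3.46 ± 0.412 and 3.19 ± 0.256 CPM and the 11 H4 genes to 11.4 ± 0.0950 and 10.96 ± 2.48 CPM. The median log2 fold change was -0.14 for H1, 0.22 for H2A, -0.04 for H2B, 0.02 for H3 and 0.04 for H4, beside -0.00 over all genes.

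The genes lie on 4 chromosomes of the GRCm38 genome. Chromosome 13 holds most of them, in a pair of groups separated by 1487 kb. The proximal group spans 21715763 to 22043676 with 17 genes, the distal group 23531050 to 23764406 with 21. Of the others, 5 are on chromosome 3, 3 on chromosome 11, 1 on chromosome 6 and the pseudogene Hist1h2al is alone on chromosome 13. This division of chromosome 13 was made after the values were seen, so its counts are a description.

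In the proximal group 13 of 17 fold changes were positive, with a median of 0.16, and in the distal group 15 of 21 were negative, with a median of -0.45. The KO libraries lay above Het without overlap in 5 of the 17 proximal genes (29.4%, against 18.6% of all genes) and below in 0. In the distal group they lay below in 7 of 21 (33.3%, against 17.7%) and above in 0. These 7 include Hist1h2ae, which reached the count limit only through WT and Het. Both called genes lie in the distal group, Hist1h2ae with the limit described above. The summed level of the distal group, most of which is Hist1h1c, was 21.9 ± 0.974 CPM in Het and 21.4 ± 0.414 in KO (SD, n = 3). The medians stayed between 0.15 and 0.36 in the proximal group and between -0.61 and -0.22 in the distal group when any 1 library was left out. The proximal median was 0.28 without Het2 or KO2 and 0.36 without Het3, and the distal median was -0.23 without Het3 and -0.22 without KO3.

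**Figure D4:**
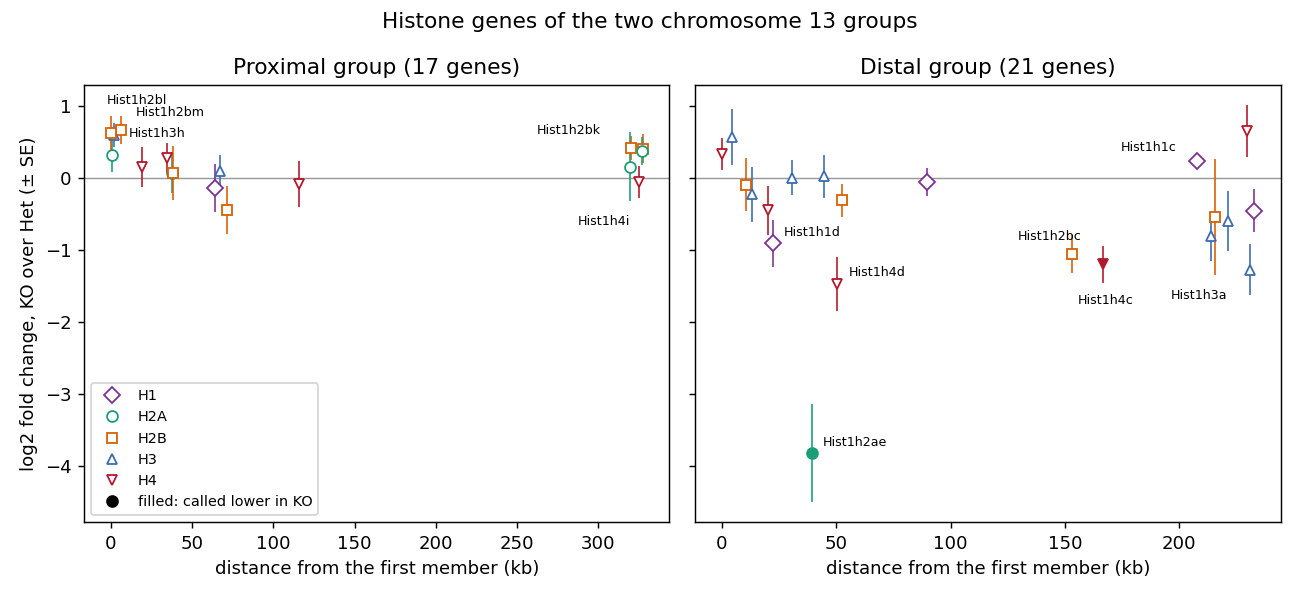
Log2 fold change, KO over Het, with its SE for each gene of the proximal (left) and distal (right) group of chromosome 13, against distance in kb from the first gene of the group. Symbols and colours give the family and filled symbols genes called lower. Proximal genes lie mostly above 0 and distal genes mostly below, with Hist1h2ae lowest at -3.83.

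By family, these values are a description with no test. The H1 genes had negative medians in both groups, -0.14 for the proximal gene and -0.25 for the 4 distal ones. The 4 proximal H2A genes had a median of 0.24, and the distal group held only Hist1h2ae. The 6 proximal H2B genes summed to 2.99 ± 0.193 CPM in Het and 3.97 ± 0.253 in KO, and the 4 distal ones to 3.25 ± 0.655 and 1.82 ± 0.614 (SD, n = 3), of which Hist1h2bc alone made up 2.47 and 1.18. The 2 proximal H3 genes had a median log2 fold change of 0.35 and the 7 distal ones of -0.23. The 4 proximal H4 genes had a median of 0.05 and the 5 distal ones of -0.45, although the distal Hist1h4a (0.65, SE 0.366) and Hist1h4h (0.33, SE 0.223) were positive. On chromosome 3 the 5 genes all had positive fold changes, from 0.03 in Hist2h2ab to 0.49 in Hist2h4, and the groups overlapped in each.

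Gene models and neighbours differed between the groups as well. In the proximal group 16 of 17 genes kept their model version between the annotations, but in the distal group only 6 of 21. Among those 6 distal genes 3 fold changes were negative and 3 positive, and among the 15 with a changed model 12 were negative. KO lay below Het without overlap in 1 of those 6 (16.7%, against 17.7% of all genes). Inside or within 100 kb of the proximal group lay 5 other tested genes, and by the distal group 3. Only 1 of these was called, the noncoding RNA Gm11335 (ENSMUSG00000085016.1; 23527011 to 23530943), which lies on the minus strand and starts just before the first distal gene. It had 53 counts in WT, 57, 41 and 137 in Het and 12, 4 and 6 in KO, a log2 fold change of -3.23 (SE 0.583, adjusted p = 0.0213, edgeR). Hfe, an iron homeostasis gene that lies among the distal histone genes, had a log2 fold change of -0.37 (SE 0.289, adjusted p = 0.425, edgeR).

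H2A and H2B genes often lie head to head and share the sequence between their starts. Among the 70 rows there were 14 such pairs within 1000 bases, and in 6 both genes were among the 48, with 172 to 301 bases between the starts. Both fold changes were positive in 5 of these 6, on chromosome 3 and in the proximal group. In Hist1h2ag and Hist1h2bj they were 0.38 and 0.41, in Hist1h2ai and Hist1h2bl 0.31 and 0.63, and in Hist1h2ak and Hist1h2bn 0.08 and 0.07. The exception was Hist3h2a with 0.22 beside its pseudogene neighbour Hist3h2bb-ps with -0.04. Of the pairs with a partner under the count limit, the distal Hist1h2bc and Hist1h2ac were at -1.06 and -0.83, and the proximal Hist1h2bm and Hist1h2aj at 0.66 and 0.83. The M21 models of these partners neither overlapped nor shared a 100-base window. Whether partners shared reads was not tested, and the counting did not state strand.

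Near-identical copies limit what a count can say here. Of the 48 genes, 43 shared at least 1 window of 100 bases with the transcripts of another gene, the median shared 26.9% of its windows, and 12 shared more than 50%. Of the 10 rows at 0 in every library, 8 shared more than 75%, for example Hist2h2aa2 and Hist2h3c1 with 100%. A 0 there does not show a silent gene. Without genes that share 50% or more, the distal group kept 20 genes with a median log2 fold change of -0.38, and the proximal group kept only 7, with a median of 0.08 and 4 positive and 3 negative fold changes. KO then lay above Het without overlap in 1 of the 7 proximal genes (14.3%, against 18.6% of all genes) and below in 7 of the 20 distal genes (35.0%, against 17.7%). Those distal genes again include Hist1h2ae, which reached the count limit only through WT and Het. The windows come from M21 models, while the counting used M10. The model version had changed in 15 distal genes but in only 1 proximal gene, so these shares may not describe the rows counted.

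**Figure D5:**
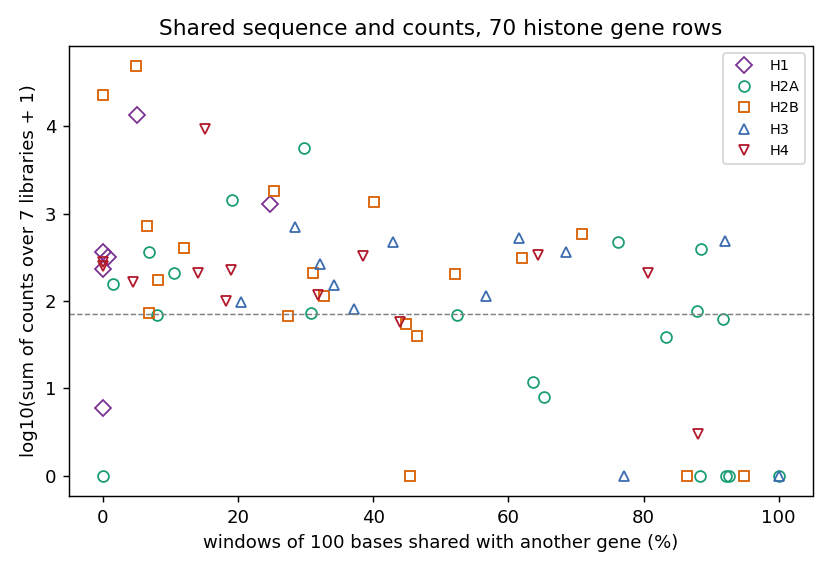
Sum of raw counts over 7 libraries, as log10 of the sum plus 1, against the percentage of 100-base windows shared with another gene, for all 70 histone rows by family. The dashed line marks the limit of 70 counts. Of the 10 rows at 0, 8 share more than 75% of their windows.

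With 1 library, WT could only be placed beside the other groups. On a log2 scale, WT lay nearer to the Het mean than to the KO mean in 27 of the 48 genes (56.3%), against 67.6% of all genes tested. This was so for 8 of the 17 proximal and 11 of the 21 distal genes. Among the 13 genes with an unadjusted p below 0.05 it was so for 9.

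Factors that make or remove histone mRNA were examined as lists. Of 12 genes for the processing of its 3′ end and binding of the stem-loop, 3 were called, against 7.22% of all genes tested. Sympk, the scaffold of the cleavage complex, fell from 242 ± 6.86 CPM in Het to 189.5 ± 4.54 in KO (SD, n = 3), a log2 fold change of -0.35 (adjusted p = 0.00514, edgeR). Coil, which codes for the Cajal body protein coilin, fell from 38.0 ± 0.894 to 20.3 ± 1.33 CPM, a log2 fold change of -0.90 (adjusted p = 0.00140, edgeR). Eri1, an exonuclease that binds the stem-loop with Slbp, rose from 66.4 ± 2.02 to 84.5 ± 5.45 CPM, a log2 fold change of 0.35 (adjusted p = 0.0129, edgeR). The list held both directions, with 7 positive and 5 negative fold changes and a median of 0.01. The cleavage factors Cpsf2 and Cpsf3 were not called, with 0.01 and 0.07.

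In the remaining lists of this pathway 0 genes were called in either direction by edgeR, against 7.22% of all genes tested. At an unadjusted p below 0.05, 15.1% of all genes tested were higher and 14.6% lower. A list of 8 held cap-binding, Ars2 and NELF factors, which steer transcripts to the stem-loop end, and the kinase Cdk9. These 8 genes had a median log2 fold change of -0.02, with 1 higher and 3 lower at an unadjusted p below 0.05. Among them Srrt (Ars2) was at 0.16 and passed the adjusted p (0.0400, edgeR) but not the fold limit. The 8 decay factors had a median of 0.01, with 1 higher and 1 lower at that p, and Upf1, the helicase that starts histone mRNA decay, was at 0.19 (adjusted p = 0.0436, edgeR), also under the fold limit. The 13 chaperones, which carry histones to DNA, had a median of 0.00, with 2 higher and 0 lower at that p. The 11 variants coded outside the clusters had a median of -0.02 with 9 negative, 0 higher and 2 lower at that p, and H1f0, the linker variant of cells that leave the cycle, was at -0.21 (adjusted p = 0.0452, edgeR).

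Replicating cells were also followed through lists. Of 24 S phase genes 0 were called by edgeR, 16 fold changes were positive and the median was 0.05. Mcm6, a subunit of the replicative helicase, was at 0.07. Of 16 genes of G2 and mitosis 0 were called, though all 16 fold changes were positive with a median of 0.09. KO lay above Het without overlap in 11 of these 16 (68.8%, against 18.6% of all genes). In the S phase list this was so for 5 of 24 (20.8%). Cenpf, a kinetochore protein, was at 0.21 (adjusted p = 0.0213, edgeR), under the fold limit. At an unadjusted p below 0.05, 4 of the S phase genes were higher in KO and 1 lower, and 7 of the G2 and mitosis genes were higher and 0 lower. All genes tested gave 15.1% higher and 14.6% lower at that p. Top2a, the topoisomerase of dividing cells, measured 896 ± 27.5 CPM in Het and 932 ± 23.1 in KO (SD, n = 3).

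Retinal cell types are given by their markers. For comparison, 4.01% of all genes tested were called higher and 3.21% lower. Of 12 progenitor genes, Notch1 was called higher (0.29) and Fgf15 and Sfrp2 lower (-0.49 and -1.05). The fold changes of this list were 4 positive and 8 negative. Of 15 genes of postmitotic neurons, Tubb3, Elavl4, Gap43 and Isl1 were called lower, with log2 fold changes from -0.68 to -0.35. Tfap2a and Tfap2b were called higher (0.46 and 0.54), and the 15 fold changes were 5 positive and 10 negative. Markers of microglia and blood vessels summed to 449 ± 14.6 CPM in Het and 588 ± 44.0 in KO (SD, n = 3), a sum led by Kdr with 368 ± 7.10 and 499 ± 54.0 CPM. Cx3cr1 and Kdr were called higher and Pdgfrb lower, and the 11 fold changes were 6 positive and 5 negative. In the lens list Foxe3 was called lower, and 0 genes were called in the muscle, erythroid and pigment lists. Of 9 muscle, 8 erythroid and 7 pigment genes tested, 6, 3 and 2 were lower at an unadjusted p below 0.05 and 0 higher. All genes gave 14.6% lower and 15.1% higher. The muscle and pigment sums were high in Het1 alone, at 289 and 565 CPM. The part of these differences in the histone values was not tested.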

How the data were processed

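RNA-seq libraries from pooled E16 retinas were prepared with a stranded mRNA kit. The authors aligned reads with STAR to mm10 (GRCm38, GENCODE M10) and deposited raw counts per gene from featureCounts. Program versions, whether counting used strand, and how multi-mapping reads were handled are not given in the sources used here. The table holds 0 other value columns. Counts were filtered by expression, TMM-normalized and tested with edgeR 4.0.16 (R 4.3.3) over 20019 genes, with all 7 libraries in the fit and Benjamini-Hochberg adjustment. DESeq2 1.42.0 was an alternative, besides other normalizations, filters, call limits and left-out libraries. The script was tested on simulated data in which only genes averaging at least 50 counts were changed. That test does not cover the 27 histone genes that averaged fewer. Gene models and transcripts came from GENCODE M21 and promoters from RefSeq (GRCm38.p6). The genes and lists were chosen with earlier results of these data known. Named in full were the genes called, the 10 of highest mean CPM, the 5 largest rises and 5 largest falls among genes averaging at least 50 counts, and from each list the genes called and the 3 most abundant, of which some are left out. Others, such as Hist1h4d, Hist1h3a, Hist1h1d and Hist1h2bl, were named after their values were seen. Sequencing depth was 120593979 to 171117305 counts per library, and intervals on pooled counts cover counting error only.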

Additional observations from a re-analysis of the deposited data

How the results depend on the processing

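Over all genes, 1445 were called. The number was 217 with glmTreat against the fold limit, 2221 with the adjusted p alone, and 386 to 1674 when 1 library was left out (386 without Het2, 496 without Het3, 612 without KO2). Of the 48 histone genes, the 2 called lower became 4 with Het and KO alone, 0 with glmTreat, 0 among genes with a sum of at least 700 counts and 0 to 3 when 1 library was left out, with 0 without Het2 or Het3 and 1 without KO1 or KO2. The 0 called higher became 1 with at least 10 counts in every library, Hist1h3h. The median log2 fold change stayed between -0.03 and 0.12 over the left-out libraries. Signs turned within left-out libraries for Hist1h1b (-0.42 to 0.13; 0.13 without Het2), Hist1h1e (-0.21 to 0.09; 0.02 without Het3, 0.088 without KO3), Hist1h4i (-0.30 to 0.17; 0.17 without KO1) and Hist2h2be (-0.03 to 0.12; -0.034 without Het2). For single named genes, 246 values under the alternatives kept their direction and side of the limit, 5 turned sign, 5 gained the call and 12 lost it. With glmTreat the adjusted p was 0.131 for Hist1h4c and 0.0684 for Hist1h2ae, which was not tested under the filter of at least 10 counts. Hist1h2bc was called by DESeq2, with at least 10 counts (0.0420), with Het and KO alone (0.0469) and without KO1 (0.0227). The medians by position on chromosome 13 were added after seeing the data. The causes of these changes were not tested. Low counts limit most of these genes, 27 of which averaged fewer than 50 per library.

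Deviations from the group means were correlated over genes between same-numbered Het and KO libraries, with r = -0.12, 0.26 and 0.02. The value of Het2 with KO2 was the highest of all combinations, while Het1 correlated better with KO3 at 0.21. Deviations within a group depend on each other, so these values cannot decide whether the numbers paired the samples. With the replicate number as a block, 1268 genes were called over all genes and 1 histone gene was lower, Hist1h2ae (-3.85, adjusted p = 0.0396, edgeR), while Hist1h4c was at -1.22 (adjusted p = 0.0584, edgeR).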
